A study of Mus musculus with 17 samples.

Results

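Levels of 9 complement transcripts were compared in colon tumors of mice of 4 Tyk2 genotypes. The 9 genes are C1qa, C1qb, C1qc, C1s1, C2, C3, C4b, Cfb and Serping1, which were chosen by name among the 55421 genes of the count tables and matched to them by Ensembl identifier. The tumors arose in the colon of mice on a C57BL/6 background that received the mutagen azoxymethane (AOM) and then cycles of dextran sulfate sodium (DSS), which injures and inflames the colon. Tyk2 is a Janus kinase that passes on signals of type I interferons and of the IL-12 family. The study states that interferon gamma does not activate it. In one experiment 3 libraries came from Tyk2+/+ mice and 3 from Tyk2Δ/Δ mice, which carry a germline deletion of Tyk2 in all cells that was made with a CMV-cre deleter strain later bred out. In the other, 7 libraries came from cre-negative Tyk2fl/fl mice and 4 from Tyk2ΔIEC mice, which are Tyk2fl/fl with Villin-cre, so that deletion is directed to intestinal epithelial cells while stromal and immune cells keep Tyk2. Both experiments had AOM and DSS in every mouse and used littermate controls of their own, so the tumors of both control groups carry the same treatment but not the same Tyk2 alleles. The ages of the mice were not given in the sources used here, and whether each library came from a separate mouse was not stated, so p-values measure the spread between these libraries.

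Complement is a cascade of plasma and tissue proteins. The classical pathway starts when C1q, a recognition molecule built from the products of C1qa, C1qb and C1qc, binds antibody or altered surfaces and activates the serine proteases C1r and C1s. C1s cleaves C4 and C2, whose fragments form a convertase that cleaves C3, and factor B (Cfb) forms the convertase of the alternative pathway together with C3b. Serping1 encodes C1 inhibitor, which blocks C1r and C1s. The liver supplies most circulating complement, whereas C1q is made mainly by macrophages and dendritic cells, and epithelial cells, fibroblasts and macrophages can make C1s, C2, C3, C4 and factor B in tissue, where interferon gamma and NF-kB signals are known inducers of several of these genes.

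Total counts on genes ranged from 19129696 to 21707373 in the Tyk2+/+, Tyk2Δ/Δ and Tyk2ΔIEC libraries and from 29777763 to 35427965 in the deeper Tyk2fl/fl libraries. Levels are given as CPM, counts scaled to the size of the library, with TMM factors computed over all 17 libraries. Tyk2 itself was counted at 55.2 to 57.1 CPM in Tyk2+/+, 58.3 to 58.5 in Tyk2Δ/Δ, 42.8 to 55.1 in Tyk2fl/fl and 51.1 to 55.4 in Tyk2ΔIEC tumors; the deleted exon holds the start codon, and counts over the whole gene do not check the deletion. Epithelial markers were abundant in every library, with a summed level of 8636 to 14643 CPM. The first 3 Tyk2fl/fl replicates had Xist, a transcript of female cells, at 1218 to 1289 CPM, against at most 3.10 CPM in any other library, and the values of the 9 transcripts in that experiment are given with and without them. In bulk tumor RNA, fewer cells of a type and less RNA per cell cannot be told apart.

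A pair of features of the genes decides what their counts stand for. On chromosome 17 the end of C2 (chr17:34862604-34898265, minus strand, GRCm38) lies just before the start of Cfb (chr17:34856374-34862518), and the annotation also holds a read-through gene, Gm20547, whose exons are made wholly of C2 and Cfb exons. STAR's gene counts leave out a read that overlaps more than 1 gene, and Gm20547 had 0 counts in all 17 libraries. Of the 3872 exon bases of C2, 1656 (42.8%) are shared with Gm20547, which leaves 2216 in 14 pieces, the longest of them 421 bases. Of the 2825 exon bases of Cfb, 2246 (79.5%) are shared, which leaves 579 bases in 3 pieces, the longest of them 467 bases at the 5′ end of the gene. The Cfb values below are therefore counts over the start of that gene. In the main Cfb transcript only 61 of 2289 coding bases (2.67%) are free of Gm20547; they lie at chr17:34862052-34862112 on the minus strand, and are printed because they are the only coding bases of that transcript that no other gene covers, with the start codon in capitals.
Cfb, first coding bases: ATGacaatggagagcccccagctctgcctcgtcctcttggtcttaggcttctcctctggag
The map of this locus shows how the shared exons fall.

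**Figure D1:**
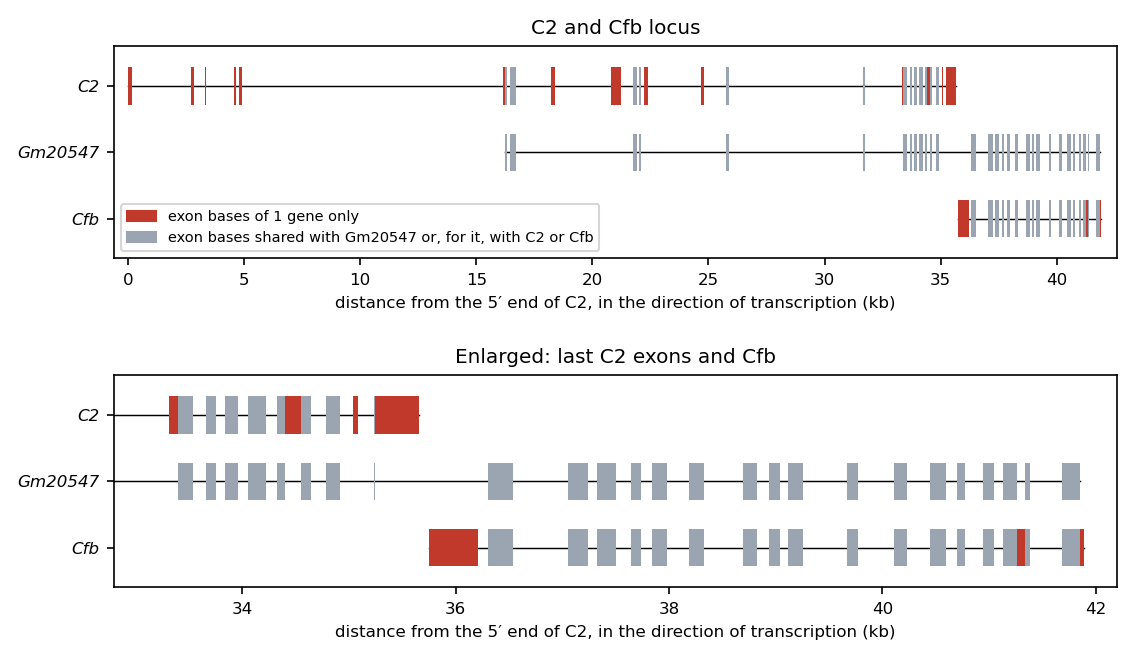
Exons of C2, Gm20547 and Cfb by distance from the 5′ end of C2 in kb, in the direction of transcription, with the whole locus above and the last C2 exons and Cfb enlarged below. Red marks exon bases of 1 gene only (2216 for C2, 579 for Cfb, 0 for Gm20547) and grey marks bases shared with Gm20547, which are most of Cfb.

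The other feature is sequence shared with paralogs. Among all stretches of 75 bases, the read length, in the C4b transcripts, 22.7% recur in C4a transcripts, and 24.8% of those in the C1s1 transcripts recur in another gene, most often C1s2 (13.0%). The paralogs were low, with C4a at 0.928 to 2.27 CPM and C1s2 at 0.149 to 0.913 CPM, but STAR counts only reads with a single alignment, so the C4b and C1s1 levels are uncertain to that extent. C2 shared 2.22% of its stretches with Zbtb12. The C1q genes, C3, Cfb and Serping1 shared none. Gm20547, whose overlap with C2 and Cfb is given above, was left out of this search.

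Per kb of exon that no other gene on the same strand covers, C1qa and C1qb were the most abundant of the 9 transcripts in Tyk2+/+ tumors, at 61.0 ± 7.96 and 57.6 ± 7.81 CPM per kb (SD, n = 3). C1qc followed with 24.8 ± 4.67, C1s1 with 23.02 ± 3.74 and Serping1 with 21.4 ± 3.71 CPM per kb, and these 3 overlapped between libraries. C3 stood at 11.7 ± 1.07 CPM per kb, below every Serping1 value. Cfb with 6.601 ± 0.871, C4b with 5.25 ± 1.5 and C2 with 3.56 ± 0.298 CPM per kb were lowest, and the C4b libraries overlapped with those of Cfb and of C2. In Tyk2Δ/Δ tumors C3 was at 5.55 ± 1.45 CPM per kb and overlapped with Cfb at 5.998 ± 0.545. In every genotype C1qa and C1qb had the highest and C2 the lowest mean by this measure. The place of C2 and Cfb depends on it. Per kb of full exon length, Cfb was lowest in Tyk2+/+ tumors, at 1.35 CPM per kb against 2.04 for C2. By that length Cfb was also lowest in Tyk2fl/fl and Tyk2ΔIEC tumors, and C2 was lowest in Tyk2Δ/Δ tumors alone (0.658 against 1.23 for Cfb). Among the C1q chains, log2(C1qa/C1qb) lay between -0.22 and 0.54 and log2(C1qa/C1qc) between 0.23 and 0.61 over the 17 libraries, with Tyk2fl/fl replicate 7 at the upper end of both.

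**Figure D2:**
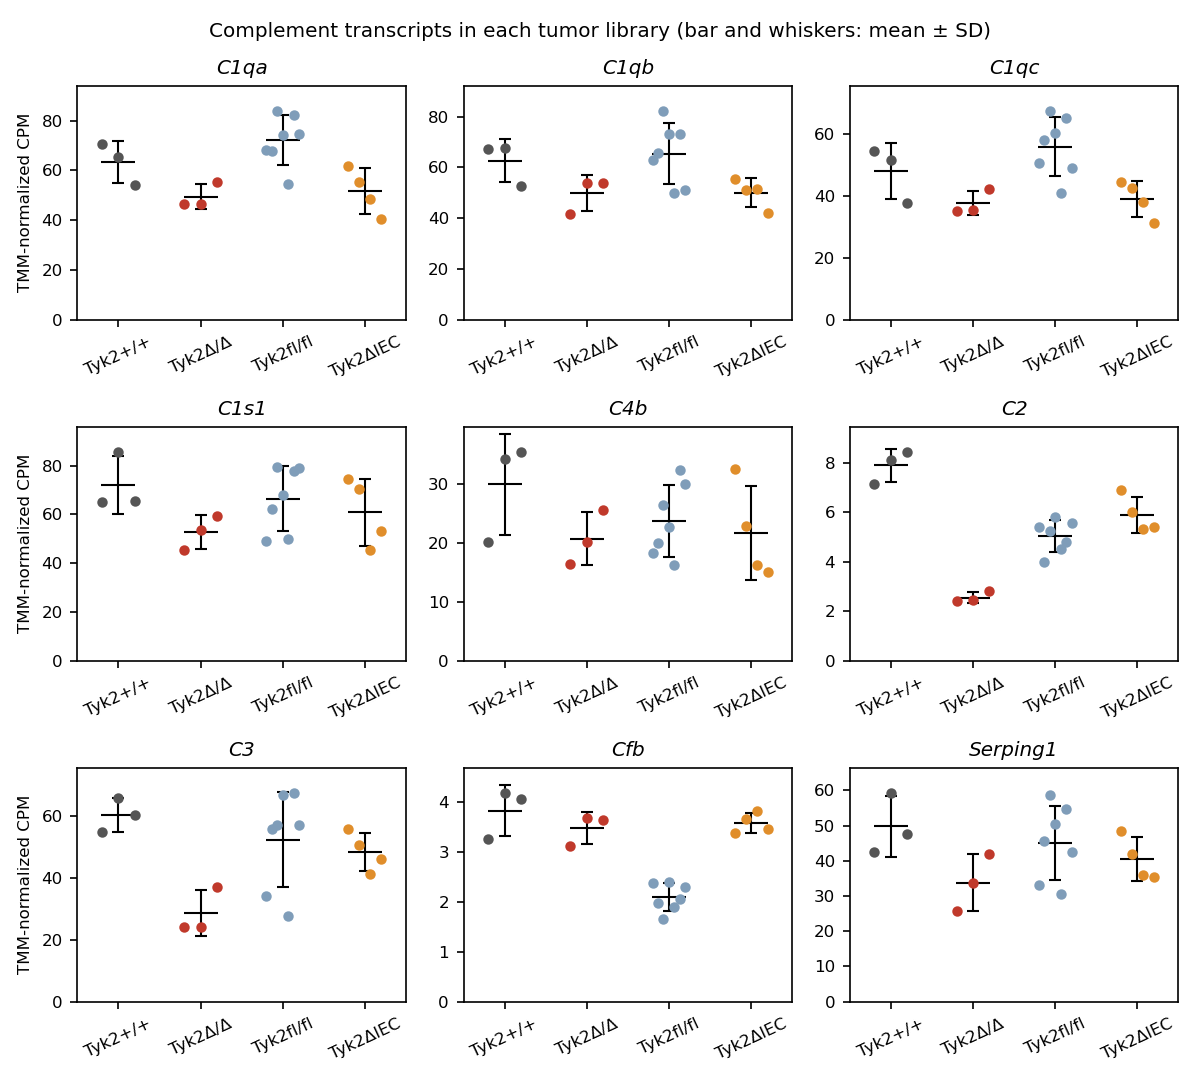
TMM-normalized CPM of each transcript (vertical axis, from 0) in each library, by genotype. Points are libraries, and the bar and whiskers are the mean ± SD of 3 Tyk2+/+, 3 Tyk2Δ/Δ, 7 Tyk2fl/fl and 4 Tyk2ΔIEC libraries. C2 in the Tyk2Δ/Δ tumors (at most 2.79 CPM) lies below every other library, and Cfb in the Tyk2fl/fl tumors (at most 2.40 CPM) lies below every other library.

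The first comparison asked how these transcripts differ when Tyk2 is lost in all cells. C2 and C3 fell in Tyk2Δ/Δ tumors, C2 by about a factor of 3 and C3 by about a factor of 2, and the other 7 transcripts had lower means without passing the test. A gene passes here at an adjusted p under 0.05 in edgeR's quasi-likelihood test (two-sided, Benjamini-Hochberg adjustment over all genes tested). Of 16179 genes tested, 2.8% passed and 2.13% passed with lower levels in Tyk2Δ/Δ tumors, beside 2 of the 9 complement transcripts, both lower. Both also passed 2-fold, as did 1.3% of all genes. The median log2 fold change of the 9 was -0.46, against 0.0040 over all genes tested.

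C2, the protease that C1s cleaves to build the C3 convertase, was counted at 7.16, 8.09 and 8.43 CPM in the Tyk2+/+ libraries and at 2.41, 2.44 and 2.79 CPM in the Tyk2Δ/Δ libraries. The groups were far apart, with the highest Tyk2Δ/Δ library under the lowest Tyk2+/+ library by more than their spread. The mean was 2.55 ± 0.213 against 7.89 ± 0.660 CPM (SD, n = 3 each), a log2 fold change of -1.64 (SE 0.16, edgeR adjusted p = 0.00265) and 3.12-fold lower. It rested on 49 to 60 counts per Tyk2Δ/Δ library and 150 to 177 per Tyk2+/+ library.

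C3, the central component whose cleavage tags surfaces, was counted at 54.9, 65.9 and 60.3 CPM in Tyk2+/+ tumors. The Tyk2Δ/Δ libraries held 24.2, 24.2 and 37.2 CPM, with replicate 3 above the other two but still under all Tyk2+/+ values. The log2 fold change was -1.09 (SE 0.17, edgeR adjusted p = 0.0204), 2.13-fold lower. This call depended on the libraries: without Tyk2+/+ replicate 3 the adjusted p was 0.0799, without Tyk2Δ/Δ replicate 1 it was 0.0583 and without Tyk2Δ/Δ replicate 2 it was 0.0848, while the log2 fold change stayed between -0.98 and -1.33 over all alternatives. C3 is the transcript of the 9 that passed here and whose promoter is in the RefSeq set (4 of 9 genes matched), and the 250 bases before its start are printed for that reason (chr17:57228137-57228386, minus strand, GRCm38.p6); capitals mark the only match found.
C3, 250 bases before the start: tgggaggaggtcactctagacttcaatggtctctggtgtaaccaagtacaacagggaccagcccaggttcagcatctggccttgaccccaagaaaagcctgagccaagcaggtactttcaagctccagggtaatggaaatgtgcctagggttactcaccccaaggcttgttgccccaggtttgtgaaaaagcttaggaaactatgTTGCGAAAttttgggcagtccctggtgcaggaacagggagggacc
Both strands were searched for a gamma-activated site (TTCNNNGAA), the core of an interferon-stimulated response element (a pair of GAAA boxes with any 2 bases between them), a C/EBP site (TTGCNNAA) and the NF-kB site. The C/EBP letters lie at bases -45 to -38 from the start, and such letters were found in 9.57% of 32841 promoter windows of the same length. The other motifs, which are held by 7.02%, 2.98% and 7.25% of those windows in the order given, had no match in these 250 bases. In the other matched windows, C1s1 had 1 C/EBP match at -242 to -235, C1qc 1 match of the NF-kB site at -41 to -32, and C1qb none. A match is a description of letters and shows no binding.

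Of the genes that start the cascade, C1s1, the C1s protease, stood at 52.7 ± 7.09 CPM in Tyk2Δ/Δ and 72.0 ± 11.7 CPM in Tyk2+/+ tumors without overlap, with a log2 fold change of -0.46 (edgeR adjusted p = 0.102). Serping1 was likewise separated, at most 41.9 CPM in Tyk2Δ/Δ and at least 42.4 CPM in Tyk2+/+ tumors, with a log2 fold change of -0.57 (edgeR adjusted p = 0.125). Values of 4 of the 9 transcripts (C1s1, C2, C3 and Serping1) did not overlap between the groups, beside 28.8% of all genes tested. The 3 C1q chains overlapped, with log2 fold changes of -0.37 for C1qa, -0.34 for C1qb and -0.36 for C1qc and edgeR adjusted p of 0.112 to 0.187. C4b, the C1s substrate whose fragment anchors the convertase, stood at 20.7 ± 4.55 against 29.9 ± 8.54 CPM (log2 fold change -0.54, 95% interval -1.08 to -0.0054). Cfb stood at 3.47 ± 0.316 against 3.82 ± 0.505 CPM, with a log2 fold change of -0.15 and a 95% interval of -0.57 to 0.27. Unadjusted p was under 0.05 for 8 of the 9 transcripts, all but Cfb, and for 22.8% of all genes tested. With DESeq2 in place of edgeR, C1qa, C1s1 and Serping1 passed too, 5 of 9, while the count of all genes passing rose from 453 to 1260.

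The second comparison asked about loss directed to epithelial cells. Cfb rose in Tyk2ΔIEC tumors, C1qa and C1qc fell, and none of these changes reached 2-fold (3.12% of all genes passed with more than 2-fold). Of 17668 genes tested, 19.9% passed (10.2% higher and 9.71% lower), against 3 of the 9 complement transcripts, 1 higher and 2 lower, so passing was common in this comparison. The median log2 fold change of the 9 was -0.10, against -0.0031 over all genes.

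Cfb was counted at 3.38, 3.65, 3.81 and 3.45 CPM in the Tyk2ΔIEC libraries and at 1.65 (lowest), 2.06 (median) and 2.40 CPM (highest) in the 7 Tyk2fl/fl libraries. Every Tyk2ΔIEC library lay above every Tyk2fl/fl library, which was so for this transcript alone among the 9, while 15.5% of all genes tested did not overlap. The log2 fold change was 0.80 (SE 0.14, edgeR adjusted p = 0.00385), 1.74-fold higher. It rested on 69 to 79 counts per Tyk2ΔIEC library and 55 to 84 per Tyk2fl/fl library. These raw counts overlapped, and the groups separated only after scaling to the deeper Tyk2fl/fl libraries. Cfb passed with only Tyk2fl/fl replicates 4 to 7 as controls (log2 fold change 0.74, edgeR adjusted p = 0.0129) and with Xist as a covariate, and in each fit that left out 1 library.

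C1qa was counted at 62.0, 55.4, 48.7 and 40.6 CPM in Tyk2ΔIEC tumors against 54.5 (lowest), 74.2 (median) and 83.9 CPM (highest) in Tyk2fl/fl tumors. C1qc was counted at 44.3, 42.3, 37.8 and 31.0 CPM against 40.9, 57.8 and 67.3 CPM in the same order. Both overlapped through Tyk2fl/fl replicate 5, the lowest of its group, and the upper Tyk2ΔIEC replicates. Log2 fold changes were -0.46 for C1qa (SE 0.13, edgeR adjusted p = 0.0273) and -0.49 for C1qc (SE 0.14, edgeR adjusted p = 0.0269). C1qb, the partner chain, had -0.36 (SE 0.14, edgeR adjusted p = 0.0777), and its fit passed without Tyk2fl/fl replicate 5 (adjusted p = 0.0326) or replicate 7 (0.04). The C1q calls rested on few libraries. With only Tyk2fl/fl replicates 4 to 7 as controls the fold changes were -0.46 and -0.46 with edgeR adjusted p of 0.0593 for C1qa and 0.0674 for C1qc. The calls were also lost without Tyk2ΔIEC replicate 3 (adjusted p 0.0803 and 0.0745) or replicate 4 (0.0717 and 0.0739), and for C1qa without Tyk2ΔIEC replicate 2 (0.0515).

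The remaining transcripts overlapped in this experiment. C2 had a log2 fold change of 0.25 (95% interval -0.042 to 0.55), with 5.90 ± 0.728 CPM (n = 4) against 5.05 ± 0.652 CPM (n = 7). C3 had -0.085 (95% interval -0.56 to 0.39), and its Tyk2fl/fl libraries were wide, from 27.8 to 67.3 CPM, with Tyk2ΔIEC libraries from 41.2 to 55.6 CPM inside that range. Intervals were -0.47 to 0.27 for C1s1, -0.61 to 0.41 for C4b and -0.50 to 0.25 for Serping1, and changes within these intervals could not be told from none. With only Tyk2fl/fl replicates 4 to 7 as controls, log2 fold changes were 0.20 for C2, -0.17 for C3, -0.16 for C1s1, -0.21 for C4b, -0.13 for Serping1 and -0.30 for C1qb, and none of these passed in edgeR. The other gene lists below were compared with all 7 Tyk2fl/fl libraries alone.

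**Figure D3:**
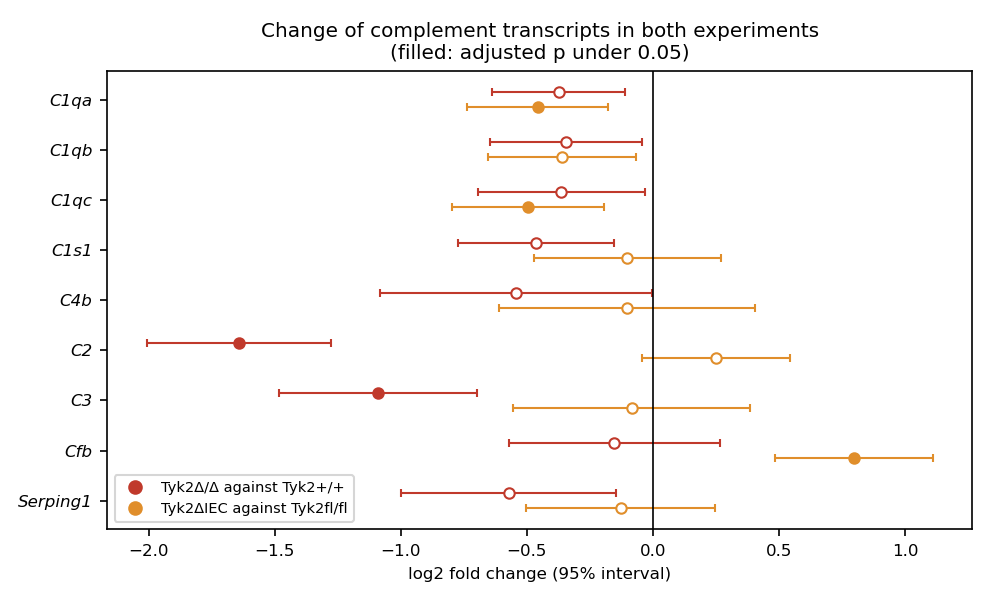
Log2 fold change (horizontal axis) of the 9 transcripts in Tyk2Δ/Δ against Tyk2+/+ tumors (red) and in Tyk2ΔIEC against Tyk2fl/fl tumors (orange), with 95% intervals from edgeR; filled points have an adjusted p under 0.05. C2 (-1.64) and C3 (-1.09) are filled in red only, and Cfb (0.80), C1qa (-0.46) and C1qc (-0.49) in orange only.

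Whether the changes differ between the experiments was tested as the germline change minus the epithelial change in 1 fit of all 17 libraries. Of 17252 genes tested, 7.96% passed (5.23% with a negative difference), and C2 and Cfb passed among the 9, both negative. C2 also passed 2-fold, as did 2.61% of all genes. For C2 the difference was -1.89 on the log2 scale (SE 0.21, 95% interval -2.33 to -1.45, edgeR adjusted p = 7.04e-05), and it passed in all 26 alternatives. For Cfb it was -0.94 (SE 0.22, edgeR adjusted p = 0.0143), with adjusted p of 0.0545 without Tyk2+/+ replicate 3, 0.0552 without Tyk2Δ/Δ replicate 1 and 0.0658 with no low-count filter. C3 differed by -1.003 with an adjusted p of 0.0812, and by -1.22 (0.0493) without Tyk2Δ/Δ replicate 3. C1qa and C1qc, which passed in the epithelial comparison alone, differed by 0.089 (95% interval -0.34 to 0.51) and 0.14 (-0.34 to 0.62), so their changes were not shown to differ between the experiments.

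The 4 genotypes were then set side by side, with the limit that the experiment and the genotype cannot be told apart in any pair that crosses experiments. C2 ran from 7.89 CPM in Tyk2+/+ over 5.90 in Tyk2ΔIEC and 5.05 in Tyk2fl/fl to 2.55 CPM in Tyk2Δ/Δ tumors. Neighbours at the top did not pass (Tyk2ΔIEC minus Tyk2+/+ -0.42, edgeR adjusted p = 0.116), and Tyk2Δ/Δ lay below Tyk2fl/fl by 0.97 (adjusted p = 0.00129) and below Tyk2ΔIEC by 1.22 on the log2 scale (adjusted p = 0.000905). The control groups themselves differed in C2, which was 0.67 higher in Tyk2+/+ than in Tyk2fl/fl tumors on the log2 scale (edgeR adjusted p = 0.00541, and 0.0562 without Tyk2+/+ replicate 3).

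Cfb had another order. It stood at 3.82 ± 0.505 CPM in Tyk2+/+, 3.57 ± 0.196 in Tyk2ΔIEC and 3.47 ± 0.316 in Tyk2Δ/Δ tumors, which no test told apart, and at 2.09 ± 0.280 CPM in Tyk2fl/fl tumors. Tyk2fl/fl was thus the group that stood apart, below Tyk2+/+ by 0.89 (edgeR adjusted p = 0.00168) and below Tyk2Δ/Δ by 0.74 on the log2 scale (adjusted p = 0.00445). Between the controls 12.9% of genes passed, 7.37% with higher levels in Tyk2+/+ tumors, beside 2 of the 9 transcripts (C2 and Cfb, both higher). Between Tyk2Δ/Δ and Tyk2fl/fl tumors 12.4% passed, 6.63% higher and 5.81% lower in Tyk2Δ/Δ, beside 5 of the 9, with Cfb higher and C1qa, C1qc, C2 and C3 lower. The deeper libraries are those of the Tyk2fl/fl group, and the part of depth or of the experiment in the Cfb level was not tested.

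C3 ran from 60.3 CPM in Tyk2+/+ over 52.3 in Tyk2fl/fl and 48.4 in Tyk2ΔIEC to 28.5 CPM in Tyk2Δ/Δ tumors, and of the cross-experiment pairs only Tyk2Δ/Δ against Tyk2fl/fl passed (-0.86, edgeR adjusted p = 0.0289). The C1q chains were highest in Tyk2fl/fl and lowest in Tyk2Δ/Δ tumors by mean, and Tyk2Δ/Δ and Tyk2ΔIEC levels were close, at 49.4 and 51.7 CPM for C1qa and 49.9 and 50.03 CPM for C1qb. Between Tyk2Δ/Δ and Tyk2ΔIEC tumors 2.17% of genes passed and C2 was the only one of the 9. Between Tyk2ΔIEC and Tyk2+/+ tumors 2.96% passed in edgeR and 0 of the 9, with 1 of 9 (C2) at an unadjusted p under 0.05, as had 21.8% of all genes tested.

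C1s1, C4b and Serping1 shared 1 order of means, with Tyk2+/+ highest, then Tyk2fl/fl, Tyk2ΔIEC and Tyk2Δ/Δ, and no pair of genotypes passed for any of them. C1s1 means were 72.0, 66.5, 60.8 and 52.7 CPM in that order, and its libraries spanned 45.2 to 85.6 CPM. C4b means were 29.9, 23.7, 21.7 and 20.7 CPM, with a wide spread in each genotype, such as 15.02 to 32.5 CPM among the 4 Tyk2ΔIEC libraries. Serping1 means were 49.8, 45.1, 40.5 and 33.8 CPM, and Tyk2fl/fl libraries alone spanned 30.5 to 58.7 CPM. From the lowest to the highest of the 17 libraries, C2 varied most, 3.49-fold, followed by C3 with 2.78-fold and Cfb with 2.53-fold, and C1s1 least with 1.89-fold.

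The rest of the system was measured through 4 further lists. Initiators of the classical and lectin pathways had 13 genes, of which 5 were counted well enough to test in the germline and 7 in the epithelial comparison, and none passed in either. C1ra, the partner protease of C1s, had -0.71 in the germline comparison with an unadjusted p of 0.00276 in edgeR. An unadjusted p under 0.05 was found there for 1 of the 5, beside 22.8% of all genes tested. Fold changes of the 5 were negative for 3 and positive for 2. The mannose-binding lectins Mbl1 and Mbl2 were too low to test. Of the alternative and terminal components, 3 of 9 were tested. The genes for C5 (Hc), C7, C8 alpha, C8 beta, C9 and factor D were too low, with at most 10 counts in any library. Cfp, which encodes properdin and stabilizes the alternative convertase, fell in Tyk2ΔIEC tumors (13.0 ± 2.03 against 20.7 ± 3.25 CPM, log2 fold change -0.64, edgeR adjusted p = 0.00935). Cfb and Cfp, both of the alternative pathway, thus passed in opposite directions in that comparison.

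Of 12 regulators, 8 were tested in the germline comparison with none passing. In the epithelial comparison 9 were tested with 2 lower, beside 19.9% of all genes passing and 9.71% passing with lower levels. Cd59a, which blocks the membrane attack complex, was at 4.06 ± 1.28 against 7.56 ± 1.69 CPM (log2 fold change -0.87, edgeR adjusted p = 0.0228). Clu, the fluid-phase inhibitor clusterin, was at 283 ± 54.6 against 545 ± 196 CPM (-0.92, adjusted p = 0.0371). For both genes Tyk2fl/fl had the highest mean of the genotypes, with Clu at 357 CPM in Tyk2+/+ and 376 CPM in Tyk2Δ/Δ tumors. Cd59a also passed between the control groups, lower in Tyk2+/+ than in Tyk2fl/fl tumors, beside 12.9% of all genes. The part of the Tyk2fl/fl group in these calls was not tested. Cd59a changed differently in the experiments (difference 1.20, edgeR adjusted p = 0.043), with 3.34 CPM in Tyk2Δ/Δ and 2.62 CPM in Tyk2+/+ tumors. Among 9 receptors, 7 were tested in each comparison and none passed; C3ar1, the receptor for C3a, had -0.25 in the germline and 0.17 in the epithelial comparison, and C5ar1 -0.25 and -0.44. Cr2, complement receptor 2, which B cells carry, was under the low-count filter in both comparisons: it was at 1.00, 0.305 and 8.29 CPM in the Tyk2+/+ libraries, at most 0.0994 CPM (1 to 2 counts) in Tyk2Δ/Δ, at most 0.150 CPM in Tyk2ΔIEC and at most 1.37 CPM in Tyk2fl/fl libraries. All Tyk2+/+ values lay above all Tyk2Δ/Δ values.

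**Figure D4:**
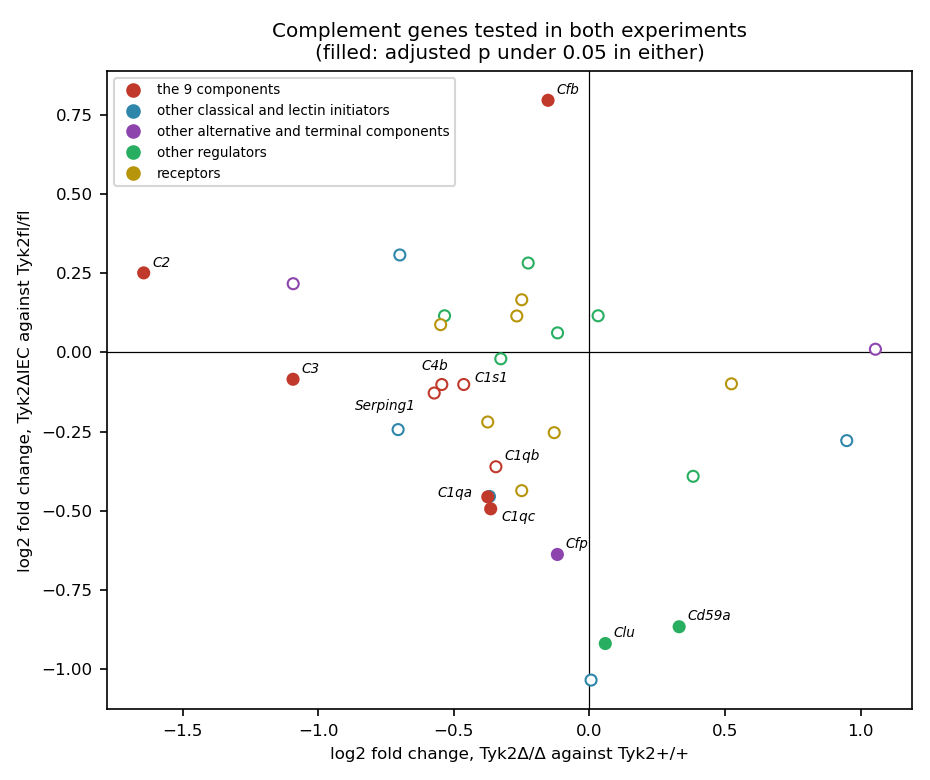
Log2 fold change in Tyk2Δ/Δ against Tyk2+/+ tumors (horizontal axis) and in Tyk2ΔIEC against Tyk2fl/fl tumors (vertical axis) of the complement genes tested in both, colored by list; filled points have an adjusted p under 0.05 in either. C2 and C3 lie far to the left near 0 on the vertical axis, and Cfb lies high near 0 on the horizontal axis. Clu (-0.92), Cd59a (-0.87) and Cfp (-0.64) lie low. Of the genes that did not pass, C6 (-1.09) lies as far left as C3 and Colec10 (-1.04) lies lowest.

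Markers of the cells that can make these transcripts moved as follows. In the germline comparison 1 of 13 macrophage markers passed (Aif1, -0.72), 1 of 13 fibroblast markers (Dpt, -1.46), 0 of 10 epithelial and 0 of 8 endothelial markers, while 8 of 10 smooth muscle markers fell, among them Mylk (-0.44), Synpo2 (-1.31), Acta2 (-0.72) and Cnn1 (-2.45). Of all genes tested there, 2.8% passed and 2.13% passed with lower levels. Summed smooth muscle markers were 203 to 278 CPM in Tyk2Δ/Δ and 362 to 553 CPM in Tyk2+/+ tumors. Summed B cell markers were 2.63 to 3.16 against 6.36 to 64.7 CPM, with none of the 4 tested markers passing. Of all these marker genes only 2 of the 8 hepatocyte markers were at 0 in every library of a group; none of the 3 hepatocyte markers tested passed, and of that list Alb was present at 6.43 to 44.1 CPM in these 6 libraries and Apoa1 at no more than 0.139 CPM. The part of these cell types in the C2 and C3 values was not tested. Of the 13 macrophage markers tested, 10 had negative fold changes (median -0.18 over the 13). An unadjusted p under 0.05 in edgeR was found for 4 of the 13, beside 22.8% of all genes tested. Values of 4 of the 13 did not overlap between the groups, beside 28.8% of all genes tested. Their summed level was 496 to 621 CPM in Tyk2Δ/Δ and 520 to 816 CPM in Tyk2+/+ tumors, with Csf1r at 37.9 ± 3.21 CPM in Tyk2Δ/Δ and 40.8 ± 8.36 CPM in Tyk2+/+ and Adgre1 at 11.7 ± 1.97 against 13.1 ± 2.48 CPM.

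In the epithelial comparison 7 of 13 fibroblast markers fell (Fbln1 -0.52, Lum -1.19, Dcn -0.71 and Col1a1 -0.64 had the smallest adjusted p), beside 9.71% of all genes. Their summed level was 1381 to 1727 CPM in Tyk2ΔIEC against 1502 to 2378 CPM in Tyk2fl/fl tumors, and 1294 to 1706 CPM in Tyk2+/+ tumors. Between the control groups 5 of the 13 passed, all lower in Tyk2+/+ than in Tyk2fl/fl tumors, beside 12.9% of all genes. Between Tyk2ΔIEC and Tyk2+/+ tumors 1 of the 13 passed (Dpt), beside 2.96% of all genes. Macrophage markers, of interest for C1q, summed to 469 to 714 CPM in Tyk2ΔIEC and 553 to 1026 CPM in Tyk2fl/fl tumors, and 12 of the 14 tested had negative fold changes. Trem2 (-0.69) and Aif1 (-0.60) passed, 2 of the 14 tested, beside 19.9% of all genes passing and 9.71% passing with lower levels. Csf1r (41.7 ± 3.95 against 42.7 ± 8.45 CPM) and Adgre1 (11.4 ± 0.659 against 11.2 ± 3.73 CPM) had fold changes of -0.0050 and 0.053, and no macrophage marker was at 0 throughout a group. The part of macrophage number in the C1qa and C1qc changes was not tested. None of the 10 smooth muscle and 10 epithelial markers and none of the 5 tested B cell markers passed, and neither did any of the 3 hepatocyte markers tested, while 1 of 8 endothelial markers did (Tek, 0.57).

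Genes of interferon gamma and JAK-STAT signaling and acute phase and NF-kB genes were read from 2 lists. These hold responders to such signals as well as signaling genes. Ifng itself was too low to test, with at most 8 counts in any library. Of 12 tested genes of interferon gamma and JAK-STAT signaling, 10 fell in Tyk2Δ/Δ tumors, with Nlrc5 at -3.38, Cxcl9 at -3.58 and Irf9 at -0.73, and 6 rose in Tyk2ΔIEC tumors, with Gbp2 at 1.60, Ciita at 1.22, Nlrc5 at 1.41 and Cxcl10 at 1.14. Of 17 acute phase and NF-kB genes, Saa3 (-1.005) passed in the germline comparison, where 2.8% of all genes passed. Cebpb (-0.99), Cebpd (-0.67) and Socs3 (-0.41) fell in Tyk2ΔIEC tumors, where C3 had -0.085. These are 3 of the 17, beside 19.9% of all genes passing in that comparison, 9.71% with lower levels. Cebpb was at 59.5 ± 11.03 CPM in Tyk2fl/fl tumors and at 29.5 to 36.5 CPM on average in the other genotypes. Tyk2fl/fl tumors were thus highest in Cebpb and lowest in Cfb, while 12.9% of all genes passed between the 2 control groups. A link between Cebpb and Cfb was not tested.

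How the transcripts vary from tumor to tumor was described by correlating log2 CPM over the 17 libraries after the mean of each genotype was subtracted. The points share depth, library preparation and the cell makeup of each piece, so r is a description. Over the 36 pairs the median Pearson r was 0.58, with a range of -0.21 to 0.92. C1qa and C1qc (0.92), C1qb and C1qc (0.89), C3 and Serping1 (0.88), C1s1 and Serping1 (0.86) and C1s1 and C4b (0.84) were closest. C2 had r of 0.19 to 0.64 with the others, highest with C4b, and Cfb -0.21 to 0.40, highest with C2. Without the Tyk2fl/fl group the median over pairs was 0.54.

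**Figure D5:**
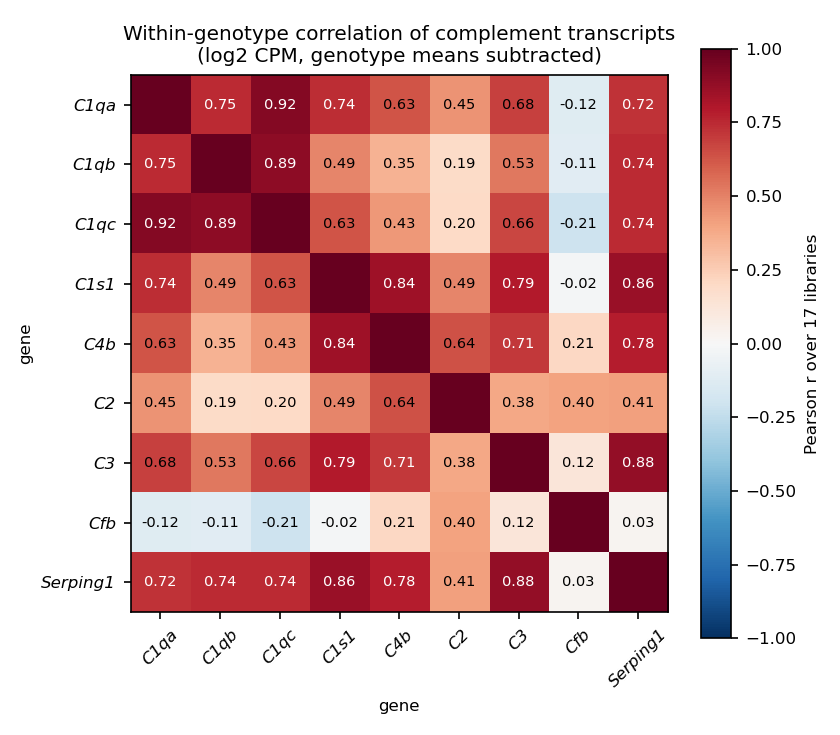
Pearson r of log2 CPM between each pair of the 9 transcripts over 17 libraries after genotype means were subtracted (color scale from -1 to 1). The C1q chains form a block of 0.75 to 0.92, and the Cfb row holds the lowest values, from -0.21 to 0.40.

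The mean of the macrophage markers had r of 0.88 with C1qa, 0.78 with C1qb, 0.89 with C1qc, 0.79 with C1s1, 0.77 with C3, 0.63 with C4b, 0.86 with Serping1, 0.30 with C2 and -0.31 with Cfb in the same 17 libraries. Fibroblast markers had r of 0.73 with C1s1 and 0.75 with Serping1, and epithelial markers had -0.69 with C1qb and 0.25 with Cfb. Endothelial markers had 0.69 with C1s1 and 0.65 with Serping1, and smooth muscle markers 0.59 with C3 and 0.57 with Serping1. Among 14646 genes with a mean of at least 1 CPM, the closest to C1qa were Rab3il1 (0.91), Clec4a3 (0.89) and Pde7b (0.88). C1qb varied most closely with Csf1r (0.94), the receptor of the macrophage growth factor CSF1, Pde5a (0.92) and Mpeg1 (0.90), and C1qc with Rab3il1 (0.94), Susd2 (0.92) and Lama1 (0.90). C2 was nearest to Ubd (0.81), Tnfrsf18 (0.80) and H2-T22 (0.79). C3 was nearest to Pim2 (0.91), Cyp4f18 (0.88) and Otop1 (0.88), and Cfb to Uggt1 (0.89), Qrsl1 (0.87) and Copg1 (0.86). For C4b they were Spns3 (0.92), Abcc2 (0.91) and C1ra (0.90), for C1s1 Gpx3 (0.92), Snx8 (0.91) and Tmem176a (0.90), and for Serping1 Apoe (0.93), Ttc7b (0.91) and Lepr (0.91).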

How the data were processed

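RNA of dissected AOM/DSS colon tumors was sequenced in 17 libraries of 4 genotypes, grouped by the genotype in each sample's label. By the methods of the study, the authors made directional poly(A) libraries, read 75 bp from one end, used STAR 2.6.1a in 2-pass mode for alignment and took its counts of reads per gene. The deposited values are raw read counts per gene, neither normalized nor filtered. The submitters' processing notes give GRCm38 (mm10); the methods name GENCODE release M23 and print the build as GRCh38. Identifiers were matched here to GENCODE M21 of GRCm38 (55154 of 55421 without version; unmatched identifiers held 0.0531% of counts), so exon lengths and overlaps may differ slightly from those used for counting. The 17 columns of the series tables equaled the single-sample tables, and no 2 replicates agreed within sampling noise.

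Each comparison was fitted with edgeR 4.0.16 in R 4.3.3 (filterByExpr with a minimum count of 10 and a total of 15, TMM, quasi-likelihood F test, Benjamini-Hochberg adjustment, threshold 0.05). The 2 within-experiment comparisons used their own libraries, and the difference between experiments and pairs across experiments used 1 fit of 17. Scripts were tested on simulated data. DESeq2 1.42.0, limma 3.58.1, other normalizations and filters, a replicate block and fits leaving out each library were alternatives. Correlations used log2 CPM with a prior count of 2. Promoter sequence is RefSeq's of GRCm38.p6. Genes named are all 9 transcripts and genes of other complement lists that passed in a within-experiment comparison. Also named are the 4 or fewer genes of lowest adjusted p in each marker or signaling list and the 3 genes closest to each transcript. C1ra, C3ar1, C5ar1, C6, Colec10, Cr2, Csf1r, Adgre1, Alb, Apoa1 and genes too low to test were added after values were seen. The values of 1 gene that this rule names are not reported here. The 9 transcripts and all lists were chosen with earlier results of these data known. Same-numbered replicates did not deviate together, as given in the closing section.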

Additional observations from a re-analysis of the deposited data

Results flagged for a closer look

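C2 and Cfb, of the 9 transcripts, were marked because their changes differed between the experiments by the test of the difference itself. For C2, the germline change minus the epithelial change was -1.89 on the log2 scale: all 3 Tyk2Δ/Δ libraries lay below all Tyk2+/+ libraries, whereas the Tyk2ΔIEC and Tyk2fl/fl libraries overlapped. For Cfb, it was -0.94: all 4 Tyk2ΔIEC libraries lay above all Tyk2fl/fl libraries, whereas the Tyk2Δ/Δ and Tyk2+/+ libraries overlapped. None of the 18 combinations of a transcript and a group of 4 or 7 libraries held a library that stood apart from the rest of its group by the ratio of gap to range.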

How the results depend on the processing

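The number of the 9 transcripts passing in the germline comparison was 2; it was 5 with DESeq2 and 4 with no low-count filter, and 1 to 2 when 1 library was left out. In the epithelial comparison it was 3; it was 0 with the replicate block, 0 when more than 2-fold was also asked, 1 with only Tyk2fl/fl replicates 4 to 7 as controls, 1 with Xist as a covariate, and 1 to 4 when 1 library was left out. For the difference between experiments it was 2; it was 1 with no low-count filter, 1 when more than 2-fold was also asked, and 1 to 3 when 1 library was left out. Between the controls it was 2, and 1 to 2 when 1 library was left out. Fold changes that turned sign were all near 0 and not past the threshold: C1qb in the difference (-0.036 with Tyk2fl/fl replicates 4 to 7 only, -0.071 with the Xist covariate, -0.066 to 0.15 when 1 library was left out) and between the controls (0.020 with Tyk2fl/fl replicates 4 to 7 only, -0.11 to 0.050 when 1 library was left out), C1s1 between the controls (-0.018 to 0.19) and in the epithelial comparison (-0.23 to 0.0038), and C4b in the epithelial comparison (-0.38 to 0.026), the last 3 when 1 library was left out. Genes called among all tested changed by over 1.5 times in these cases: in the germline comparison from 453 to 1260 with DESeq2, 1020 with no filter, 246 with the replicate block and 210 past 2-fold; in the epithelial comparison from 3515 to 1181 with the replicate block and 551 past 2-fold; in the difference from 1374 to 868 with no filter and 451 past 2-fold. When 1 library was left out, they were 114 to 822 in the germline comparison, 1632 to 3798 in the epithelial comparison, 584 to 1690 in the difference and 345 to 2806 between the controls (2219 with all). Replicate numbers share nothing but the number by the labels: deviations of same-numbered libraries correlated at -0.11 to -0.0051 in the germline and -0.37 to 0.068 in the epithelial experiment. With the block, adjusted p was 0.064 for Cfb, 0.0806 for C1qa and 0.0584 for C1qc in the epithelial comparison, and C2 and C3 passed in the germline comparison. The cause was not tested in any of these cases. Depth limits C2 and Cfb most, at 49 to 199 and 55 to 85 counts per library.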
